A study of Oryza sativa with 10 samples.

Results

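Of 87915 regions of the rice genome that carried a deposited G-quadruplex capture peak, 7976 (9.07%) held a peak of each of 3 distinct lists: BioCyTASQ in vitro, BioTASQ in vivo, and a list deposited both as BG4 and as BioTASQ in vitro. They were chosen by the measured peak positions themselves: the distinct rows of the 3 lists were pooled, rows that overlapped by at least 1 bp were merged, and a merged region was kept where at least 1 row of every list fell in it. These 7976 regions are called members here, and the share of 9.07% is the base for counts of members among regions. Shares of a list's rows are read against all rows of that list. Because the peak calls chose the members, their fold enrichments, q values, widths and summit positions are given as descriptions without a test.

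A G-quadruplex is a structure in which a guanine-rich strand folds into stacked planes of hydrogen-bonded guanines, the G-quartets. Template-assembled synthetic G-quartets (TASQs) are small molecules that carry guanines on a scaffold and bind a G-quadruplex through stacking of a synthetic quartet on a native one. BioTASQ and BioCyTASQ carry biotin, so that bound DNA can be pulled down on streptavidin. BG4 is an antibody fragment that recognises the same structure, and it is commonly made with a FLAG tag.

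The material was seedlings of Oryza sativa japonica, cultivar Nipponbare, aged 2 weeks and fixed with 1% formaldehyde for 10 min under vacuum, the same for every group. The 10 libraries form 7 groups. Captures with BioTASQ in vivo, with BioTASQ in vitro and with BioCyTASQ in vitro have 2 libraries each, and there is 1 biotin and 1 input library for each of the in vitro and in vivo settings, 4 called controls here from their titles. The in vivo biotin and input libraries also carry BioTASQ as the bait in another label, so what they were exposed to is uncertain. Beyond the words vitro and vivo the labels do not describe the settings, and no library is labelled BG4. The BG4 list and the BioTASQ in vitro list hold the same 29469 rows (0 differ), of which 29443 are distinct. The row names of that shared list carry the stem K_PEG_flag, whereas those of the other lists carry the word biotin. It is called the BG4/BioTASQ list here, since the sources used do not say which of the captures gave it. Each capture has 1 list and none per library, so no value below has a replicate error and no p-value is given. Where an SD is printed it is the spread over the 12 chromosomes, which are places in the genome and not replicates. The sources used here give no read depth, no genome build, no control for any list and no word on pooling, so positions are those of the deposited files.

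The members held 16.4% of the 49898 BioCyTASQ rows, 30.0% of the 29443 BG4/BioTASQ rows and 15.1% of the 57500 BioTASQ in vivo rows. Regions of BioCyTASQ and BioTASQ in vivo without BG4/BioTASQ were the largest shared class, at 21617 (24.6%). Regions of BG4/BioTASQ with BioCyTASQ alone numbered 3913 (4.45%), and those of BG4/BioTASQ with BioTASQ in vivo alone numbered 3170 (3.61%). The lists differ in length, so these shares give no order between baits. Most members were simple: 6574 (82.4%) held exactly 1 row of every list. A further 595 (7.46%) held 2 BG4/BioTASQ rows beside 1 of each other list, 429 (5.38%) held 2 BioTASQ in vivo rows and 118 (1.48%) held 2 BioCyTASQ rows.

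**Figure D1:**
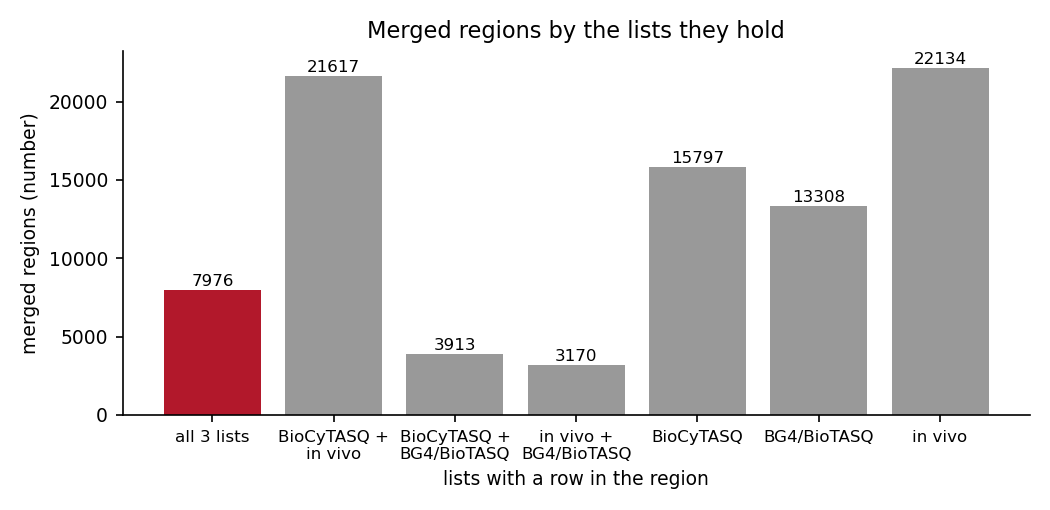
Number of merged regions (vertical axis) by the lists with a row in them (horizontal axis), members in red and the other 6 classes in grey. The 7976 members are fewer than the 21617 regions of BioCyTASQ and BioTASQ in vivo alone and more than the 3913 and 3170 regions that BG4/BioTASQ shares with 1 other list.

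In members, the BioTASQ in vivo row mostly lay near the centre of the BioCyTASQ row, whereas the BG4/BioTASQ row was scattered around it. Members were also broad. Their median width was 801 bp, against 571 bp for regions of BioCyTASQ and BioTASQ in vivo alone and 471 bp and 466 bp for the classes that pair BG4/BioTASQ with 1 other list. Merging rows of more lists widens a region by construction. Together they covered 7.18 Mb, of which BioCyTASQ rows covered 84.2%, BioTASQ in vivo rows 63.2% and BG4/BioTASQ rows 39.4%. Bases covered by all 3 lists made up 19.9% of the length (1.43 Mb), whereas bases covered by BioCyTASQ and BioTASQ in vivo alone made up 36.4%.

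The rule asks for overlaps but not for a base common to all lists. Such a base was present in 6564 members (82.3%, SD 2.80 over the 12 chromosomes, 77.0% to 87.1%), with a median of 151 bp shared over all members. The BioCyTASQ and BioTASQ in vivo rows overlapped in 7955 members (99.7%), the BioCyTASQ and BG4/BioTASQ rows in 7548 (94.6%) and the BioTASQ in vivo and BG4/BioTASQ rows in 7038 (88.2%). The remaining 1412 members (17.7%) were chains without a common base. In 938 of these (66.4%) the BioCyTASQ row bridged the other lists' rows, in 428 (30.3%) the BioTASQ in vivo row did, and in 21 (1.49%) the BG4/BioTASQ row did.

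Summit positions repeated this arrangement. The summits of the strongest BioCyTASQ and BioTASQ in vivo rows lay a median of 72 bp apart in members, with 61.2% within 100 bp, close to the 76 bp in regions of that pair alone. The BG4/BioTASQ summit lay 185 bp from the BioCyTASQ summit in members, against 107 bp in regions of that pair alone, and 208 bp from the BioTASQ in vivo summit, against 146 bp. All 3 summits fell within 100 bp of each other in 981 of 6921 members (14.2%) whose rows all held their own summit. Members are wider than regions of a single pair, which allows larger distances. Measured between row centres in units of the half-width of the other list's row, the BG4/BioTASQ row lay 0.889 from the BioTASQ in vivo row in members and 0.888 in regions of that pair alone, so that gap was absent on the scaled measure. From the BioCyTASQ row it lay 0.674 half-widths in members and 0.582 in regions of that pair alone.

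Centres of rows gave the same picture without summits. The BioTASQ in vivo centre fell in the inner 50% of the BioCyTASQ row in 78.2% of members, whereas the BG4/BioTASQ centre did so in 36.8% and lay beyond the BioCyTASQ row altogether in 28.4%. The classes of a single pair had a similar layout: the BioTASQ in vivo centre fell in the inner 50% in 71.0% of regions of that pair alone, and the BG4/BioTASQ centre did so in 43.3% and lay beyond the row in 20.4%. The offsets of BioTASQ in vivo centres formed a single narrow peak, with 20.9% of members in each of the 50 bp bins beside 0. Those of BG4/BioTASQ were nearly level from -250 to 250 bp, between 5.28% and 6.27% in each 50 bp bin. They went equally to both sides, with 51.3% toward lower coordinates. Of the 3 centres, the BG4/BioTASQ one was in the middle in 10.6% of the 7976 members, the BioCyTASQ one in 44.1% and the BioTASQ in vivo one in 44.9%.

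**Figure D2:**
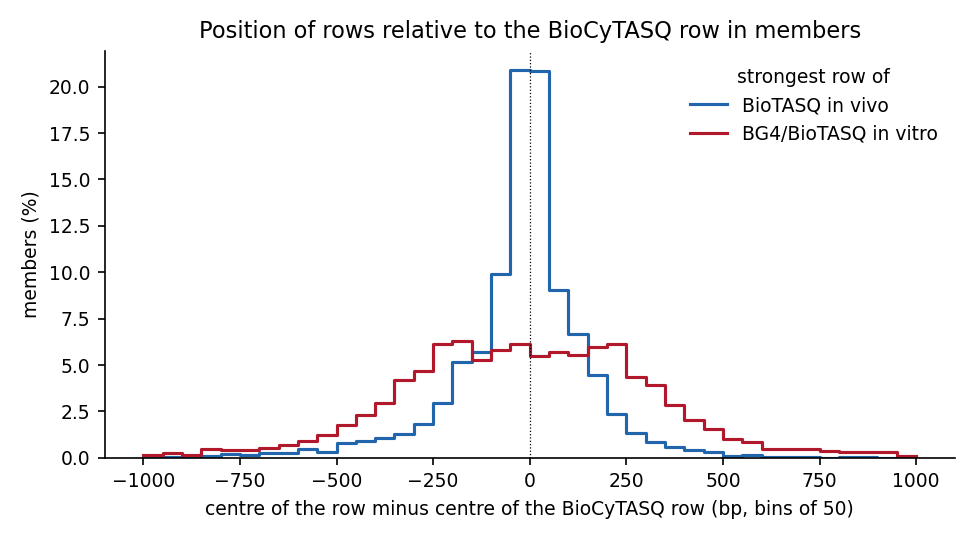
Distance from the centre of the strongest BioCyTASQ row to the centre of the strongest BioTASQ in vivo row (blue) and BG4/BioTASQ row (red) in the 7976 members, in 50 bp bins from -1000 to 1000 bp; the vertical axis is the percentage of members in a bin. The blue line peaks at 20.9% beside 0, and the red line stays between 5.28% and 6.27% from -250 to 250 bp.

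Enrichment differed between lists in how members stood within their list. Fold enrichment here is the authors' value for each peak, the summit over the control level as MACS2 writes it, and it is comparable only inside a list. The median fold of the strongest BioCyTASQ row in members was 3.78, with a middle 50% of members from 2.89 to 5.01 and a range of 1.25 to 14.9, beside 3.90 for all rows of that list. For BG4/BioTASQ the median was 4.96 (4.05 to 6.24, range 1.98 to 20.8), beside 4.82. For BioTASQ in vivo it was 4.94 (4.20 to 5.73, range 1.78 to 12.4), beside 4.42. Taking the strongest row of a member raises its value where a list has several rows there, so medians over all rows are compared next.

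Over all rows in members, the median BioCyTASQ fold was 3.75, below the 5.08 of rows in regions of BioCyTASQ and BioTASQ in vivo alone and above the 2.98 and 3.31 of rows shared with BG4/BioTASQ alone or with no list. The difference to the regions of BioCyTASQ and BioTASQ in vivo alone averaged -1.30 over the chromosomes (SD 0.06) and was negative on 12 of 12. The median -log10 q was nearly the same in those 2 classes, 28.2 and 28.7, and was higher in members on 6 chromosomes and lower on 6. BioTASQ in vivo rows had a median fold of 4.92 in members and 4.64 in regions shared with BioCyTASQ alone, higher in members on 12 of 12 chromosomes. BG4/BioTASQ rows had the same median fold, 4.84, in members and in regions of no other list, with 4.34 where BioCyTASQ alone was shared and 5.44 where BioTASQ in vivo alone was shared.

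**Figure D3:**
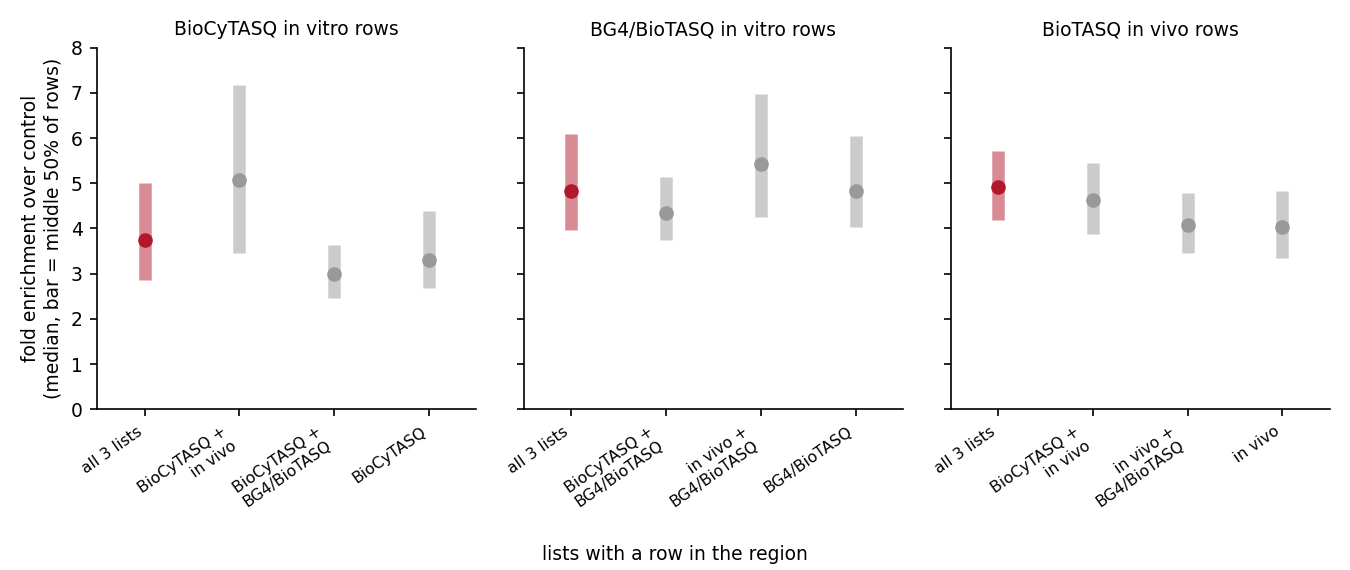
Fold enrichment over control (vertical axis) of rows of each list by the lists with a row in the region (horizontal axis); points are medians, bars span the middle 50% of rows and members are in red. BioCyTASQ rows have a median of 3.75 in members and 5.08 in regions of BioCyTASQ and BioTASQ in vivo alone, whereas BioTASQ in vivo rows have 4.92 in members and 4.64 in that class.

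The strongest peaks of a list were unevenly present. Among members, 1354 (17.0%, SD 1.92 over chromosomes) had their strongest BioCyTASQ row in the top 25% of that list by fold, against 25.1% of all regions with a BioCyTASQ row. For BG4/BioTASQ the count was 2232 (28.0%, SD 1.68) against 25.7%, near that background, and for BioTASQ in vivo 3104 (38.9%, SD 1.80) against 24.9%. No list was in its top 25% in 3100 members (38.9%), 1 list in 3253 (40.8%), 2 lists in 1432 (18.0%) and all lists in 191 (2.39%). Those 191 had a median width of 1272 bp and a base in all 3 lists in 86.4%.

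BioCyTASQ rows in members lay on a higher control level than those of every other class. MACS2 writes p and fold for each peak. From these, the fragment pileup at the summit and the control level were solved for the BioCyTASQ and BioTASQ in vivo lists. Both are in the caller's scaled fragments. Only whole pileups were searched, and they met the deposited -log10 p within 0.001 in 99.97% and 99.998% of rows. The median control level of BioCyTASQ rows was 26.2 in members, 12.4 in regions of BioCyTASQ and BioTASQ in vivo alone, 12.8 with BG4/BioTASQ alone and 9.77 in regions of no other list. The excess over the class with BioTASQ in vivo alone averaged 13.8 (SD 0.73) and was positive on 12 of 12 chromosomes. The median pileup was also higher in members, 109 against 75. BioTASQ in vivo control levels had medians of 16.0 in members and 15.7 in regions shared with BioCyTASQ alone. They had a median of 16.5 both with BG4/BioTASQ alone and in regions of no other list. Members minus regions shared with BioCyTASQ alone averaged 0.25 over the chromosomes (SD 0.12), positive on 12 of 12. Members minus regions shared with BG4/BioTASQ alone averaged -0.52 (SD 0.14), negative on 12 of 12. Against regions of no other list the difference averaged -0.53 (SD 0.12), also negative on 12 of 12. However, 15.7 is the lowest level in that list, and 47.0% of its rows in members and 44.5% of all its rows lay at or near it. Medians so close to the lowest level have little room to differ, so these small gaps are not set against those of BioCyTASQ.

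When all BioCyTASQ rows were put into 5 equal groups by control level, the share inside members was 0.411% in the lowest group, then 1.53%, 5.37% and 20.3%, and 54.2% (SD 1.90 over chromosomes) in the highest. Within the 3 upper groups the medians of fold in members and in regions of BioCyTASQ and BioTASQ in vivo alone were close, at 5.36 and 5.49, 4.86 and 4.88, and 3.42 and 3.54. In the 2 lower groups, which hold few member rows (41 and 153), they were 5.47 and 6.35, and 5.51 and 5.88. In 5 equal groups by row width the lower fold of members stayed, at 2.21 against 2.63 in the narrowest group and 4.34 against 6.84 in the broadest. Both splits were chosen after seeing the data. Fold is pileup over control level, so the values are tied by arithmetic, and the part of the control level in membership itself was not tested.

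**Figure D4:**
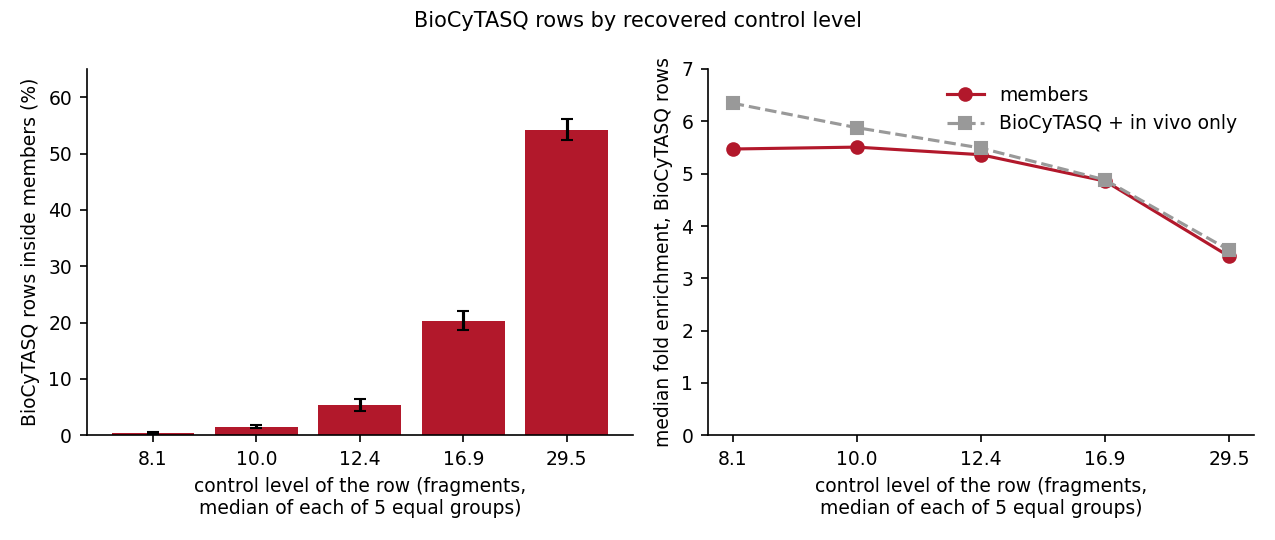
BioCyTASQ rows in 5 equal groups by control level (horizontal axis, median of each group in the caller's scaled fragments): left, the percentage of rows inside members with the SD over 12 chromosomes; right, the median fold of rows in members (red) and in regions of BioCyTASQ and BioTASQ in vivo alone (grey). The share inside members goes from 0.411% to 54.2%, and the fold medians of both classes lie within 0.13 of each other in the 3 upper groups.

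Among the members themselves, those on a high BioCyTASQ control level more often had a common base and were stronger in the other lists. From the lowest to the highest of 5 equal groups of members, the share with a base in all 3 lists went from 55.5% through 77.7%, 87.5% and 94.6% to 96.1%. The median distance between BG4/BioTASQ and BioCyTASQ centres went from 294 bp through 241, 212 and 184 bp to 151 bp. Widths showed no such order, with medians between 756 and 839 bp. The BG4/BioTASQ fold went from a median of 4.74 to 5.43 and the BioTASQ in vivo fold from 4.48 to 5.27, while the BioCyTASQ fold went from 5.33 down to 2.71. Chains without a common base had a median BioCyTASQ control level of 17.6, against 28.3 in members with one.

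BioCyTASQ and BioTASQ in vivo folds ranked the 7976 members in a related order, with Spearman's rho 0.32 (0.30 to 0.36 by chromosome), the same as the 0.32 over the 21617 regions of that pair alone. Inside the 5 groups of members by BioCyTASQ control level rho was 0.52 to 0.64. By -log10 q, rho was 0.53 over all members and 0.42 over regions of BioCyTASQ and BioTASQ in vivo alone. Neighbouring regions share sequence composition and mappability, so these are descriptions. For BG4/BioTASQ folds over the 7976 members rho was -0.07 with BioCyTASQ and 0.04 with BioTASQ in vivo. Whether any of the lists share a control library is not stated, so none of these values is read as agreement or the lack of it.

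Wider rows lay in members more often in every list. From the narrowest to the broadest of 5 equal groups, the share of rows inside members went from 6.73% to 34.2% for BioCyTASQ, from 23.2% to 44.0% for BG4/BioTASQ and from 8.08% to 23.2% for BioTASQ in vivo. A wide row meets another by its length alone, which the rule favours. By fold, BioTASQ in vivo went from 7.13% to 24.0%, BG4/BioTASQ stayed between 28.4% and 30.9%, and BioCyTASQ was lowest, at 9.90%, in its strongest group. Of the 1758 BioCyTASQ rows of 1500 bp or more, 580 (33.0%) lay in members. This is beside 16.4% of all BioCyTASQ rows and close to the 34.2% of the broadest group.

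The member with the best mean rank over the 3 lists by fold was chr3:16873294-16874380, with folds of 10.5 in BioCyTASQ, 10.3 in BG4/BioTASQ and 6.35 in BioTASQ in vivo, a mean rank within the top 3.71% of the lists. It is a chain with no base common to all. The next, chr1:32082999-32084370, had folds of 9.53, 10.8 and 6.27 in the same order, and shared 281 bp. The region chr1:38220013-38220772 followed with 10.6, 7.23 and 7.70, and chr4:10202102-10202689 with 7.29, 11.8 and 6.63. These are short members, of 760 and 588 bp, that share 49 and 43 bp. Of the 10 strongest members, 4 had no common base, beside 17.7% of all members. So few regions show no trend with strength. Of the 191 members that ranked high in all lists, as counted above, 86.4% had a common base, against 82.3% of all members. The strongest member of a chromosome ranked lowest on chromosome 12, where chr12:8021020-8021824 had folds of 5.68 in BioCyTASQ, 8.39 in BG4/BioTASQ and 7.51 in BioTASQ in vivo, a mean rank within the top 10.7%.

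Members named for their rows, width or shared bases differed in make among themselves. The region chr1:7644666-7650119 held 11 rows over 5454 bp, with 3024 bp common to all 3 lists, the most of any member, and folds of 4.53, 6.71 and 6.87 in BioCyTASQ, BG4/BioTASQ and BioTASQ in vivo. The widest, chr4:2266076-2272515, spanned 6440 bp with 9 rows and no common base, at folds of 12.2, 6.14 and 5.82. The narrowest, chr4:15743882-15744076, spanned 195 bp with 139 bp common to all, at folds of 2.71, 3.99 and 4.51. After the widest shared core, chr10:1670160-1671639 had the next one, 1027 bp, with folds of 7.36, 6.14 and 7.94.

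At the edge of the rule, 6 members were held together by an overlap of 1 bp and 95 (1.19%) by 10 bp or less, and 13 regions of a pair of lists had a row of the third list directly adjacent without overlap. Just inside lay chr11:7155113-7156018, with folds of 6.53 in BioCyTASQ, 2.99 in BG4/BioTASQ and 5.31 in BioTASQ in vivo. Just outside lay chr1:15442594-15443131, with 6.74, an adjacent BG4/BioTASQ row at 4.85, and 3.98. The values of these regions overlap.

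Members were found on every chromosome, at 21.7 ± 2.37 per Mb (SD over 12 chromosomes), from 17.8 on chromosome 3 to 24.5 on chromosome 10. As a share of all merged regions they ranged from 7.74% on chromosome 3 to 10.6% on chromosome 12. Neighbouring members lay a median of 26.5 kb apart, with a middle 50% of 8.73 to 60.3 kb. Of 7964 gaps, 337 (4.23%) were under 1 kb and the longest was 576 kb, at chr6:4677289-5253394. In 367 full windows of 1 Mb the count ran from 5 to 62, with a median of 20. Counts of members moved with counts of rows in these windows, with rho 0.82 for BG4/BioTASQ, 0.76 for BioCyTASQ and 0.28 for BioTASQ in vivo. Every member holds at least 1 row of each list by the rule, so member rows are part of these row counts. They are 30.0%, 16.4% and 15.1% of the lists in the same order, so the rho values give no order between lists. The densest window, at 18000001 to 19000000 on chromosome 6, had 62 members among 325 regions (19.1%). It also held 263 BioCyTASQ, 144 BG4/BioTASQ and 178 BioTASQ in vivo rows. The window at 1000001 to 2000000 on chromosome 9 had 48 members among 243 regions (19.8%).

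Members were sparser toward chromosome ends, taken as the chromosome start and the last deposited row. They numbered 14.8 per Mb within 1 Mb of an end and 27.5 per Mb at 12 to 15 Mb, and made up 7.01% and 11.2% of the merged regions there. At 15 to 22 Mb, a distance reached on 5 chromosomes only, against 10 at 12 to 15 Mb, they were down to 23.2 per Mb and 9.81%. Beyond 8 Mb from an end the share averaged 10.6% over chromosomes and within 1 Mb it averaged 6.97%, a difference of 3.64 percentage points (SD 2.15), positive on 11 of 12 chromosomes. Regions of all kinds also differed in density, with 212 per Mb in the outermost 1 Mb and 244 at 12 to 15 Mb. The rise was not particular to members. Between the same bins, regions of BioCyTASQ and BG4/BioTASQ alone went from 7.29 to 14.7 per Mb. Those of BioCyTASQ and BioTASQ in vivo alone went from 47.2 to 55.9, and those of BioCyTASQ with no other list from 34.25 to 47.8. The classes without BioCyTASQ were less dense at 12 to 15 Mb than in the outermost 1 Mb. The control level moved with position too: 52.9% of members in the lowest group by BioCyTASQ control level and 61.3% in the highest lay over 8 Mb from an end. Its part in the pattern was not tested.

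**Figure D5:**
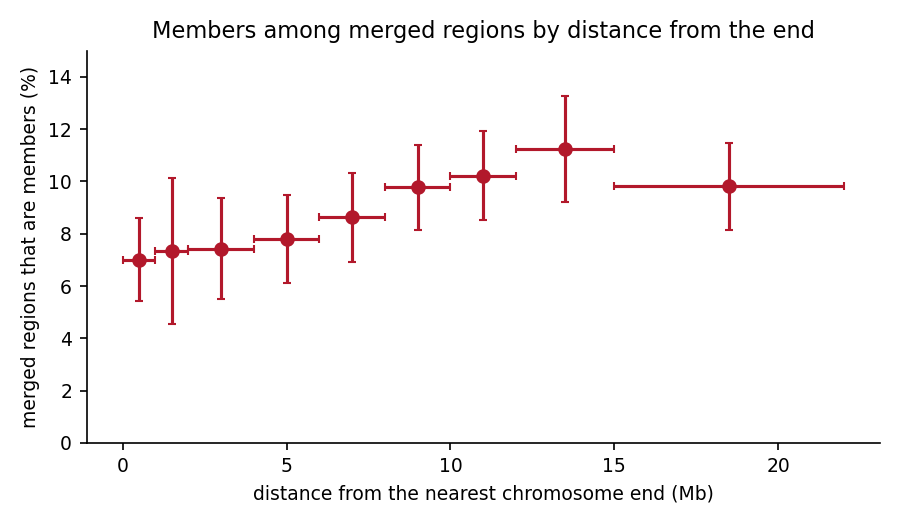
Percentage of merged regions that are members (vertical axis) by distance from the nearest chromosome end in Mb (horizontal axis); horizontal bars span the bin and vertical bars are the SD over the chromosomes with such a bin. The share is 7.01% in the outermost 1 Mb, 11.2% at 12 to 15 Mb (10 chromosomes) and 9.81% at 15 to 22 Mb (5 chromosomes).

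The number of members depended on how an overlap was defined and on which rows were used. It was 1975 where rows had to overlap by 50% of both rows, and 4153 where every row was replaced by a 200 bp window at its summit. With the 1 bp overlap kept, it was 3620 with 29443 of the strongest rows from each list, which is the whole BG4/BioTASQ list. It was 1524 with the stronger 50% of each list by fold.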

How the data were processed

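G-quadruplex-enriched DNA was sequenced from rice seedlings. The authors deposited peak lists of 10 columns without header in the narrowPeak layout, 1 list per capture. MACS2 2.1.1, SAMtools 1.5, Picard, BWA and Trim Galore 0.4.4 are listed without roles, per the submitters' processing notes. The sources used here give no build, control, threshold or pooling. The deposited fold is a ratio of summit to control level. The deposited p-value and q-value are given as -log10, and the deposited score is 10 times the -log10 q. The lowest -log10 q was 1.31 in the BioCyTASQ list, 3.00 in the BG4/BioTASQ list and 3.01 in the BioTASQ in vivo list, so the lists reach to different depths of significance. Read depth is unknown.

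Repeated rows were dropped (26 in the BG4/BioTASQ list), rows were merged at 1 bp, and a list's strongest row in a region was the one with the highest fold. In 16.0% of BioTASQ in vivo rows in members and 0.196% of BioCyTASQ rows the summit offset pointed beyond the row's end; these were left out of summit distances. Pileup and control level were solved from the deposited p and fold under the caller's Poisson model. No test was made, because no list has replicates. Merging and solving were tested on simulated data. Named regions were the 10 strongest by mean rank over the lists (at most 1 per 100 kb), the strongest of each chromosome, and the 3 with most rows, greatest width, least width and most bases common to all lists; the first of each are printed. The members, lists and comparisons were chosen with earlier results of these data known. Genes and sequences at the regions were not analysed here. Values were computed in Python 3.11.15 with pandas 2.3.3, NumPy 2.4.6 and SciPy 1.17.1, and drawn with Matplotlib 3.10.9.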

Additional observations from a re-analysis of the deposited data

How the results depend on the processing

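No paired analysis was possible because each capture has 1 list and no column per replicate; for the same reason no replicate could be left out. The 14 measures of members were recomputed under 9 other settings. When rows with a -log10 q under 3 were dropped, no median and no density moved by more than its spread over chromosomes. The percentages then stayed within the 95% binomial interval of the main values, and 7812 members were left. That interval treats regions as independent, so it is only a yardstick for a shift and not a replicate error. The number of members was 8489 with rows up to 100 bp apart joined and 6968 without rows whose summit lies beyond their end. It was 6561 where rows were joined at 50% of the shorter row. With rows up to 100 bp apart joined, members were 9.89% of regions, 77.3% had a common base, and the BG4/BioTASQ summit lay 200 bp from the BioCyTASQ and 219 bp from the BioTASQ in vivo summit. Without rows whose summit lies beyond their end the values were 8.59% of regions, 83.3% with a common base and 19.0 members per Mb. Joining at 50% of the shorter row gave 7.07%, 90.4% with a common base, 17.9 per Mb, a BioTASQ in vivo fold of 5.00 and -log10 q of 31.5, and BG4/BioTASQ summit distances of 157 and 190 bp. Members with a common base alone gave 7.47%, 17.9 per Mb, folds of 3.70, 5.04 and 5.01 (BioCyTASQ, BG4/BioTASQ, BioTASQ in vivo), a BioTASQ in vivo -log10 q of 31.6, and distances of 158 and 186 bp. At 50% reciprocal overlap there were 1975 members, 1.78% of regions and 5.43 per Mb, 100% with a common base, 612 bp wide, with folds of 3.14, 5.39 and 4.87, -log10 q of 22.8, 11.8 and 30.2, and summit distances of 59 bp (BioCyTASQ to BioTASQ in vivo), 104 and 126 bp. With 200 bp summit windows 4153 members made up 4.00% and 11.3 per Mb, 70.3% with a common base, 355 bp wide, with folds of 3.39, 4.84 and 4.78, BioCyTASQ and BioTASQ in vivo -log10 q of 24.1 and 29.2, and distances of 57, 111 and 122 bp. With equal numbers of rows 3620 members made up 5.76% and 9.84 per Mb, 971 bp wide, with BioCyTASQ and BioTASQ in vivo folds of 4.88 and 5.50 and -log10 q of 44.6 and 37.7, and BG4/BioTASQ distances of 259 and 262 bp. With the stronger 50% of each list 1524 members made up 3.08% and 4.13 per Mb, 79.3% with a common base, 1004.5 bp wide, with folds of 5.17, 5.96 and 5.58, -log10 q of 49.5, 13.03 and 38.5, and BG4/BioTASQ distances of 300 and 298.5 bp. Keeping strong rows raises fold and q by construction; the cause of the other shifts was not tested. The BG4/BioTASQ summit was farther from both others than they were from each other in each setting printed with all 3 distances.

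The BioCyTASQ fold of members minus that of regions of BioCyTASQ and BioTASQ in vivo alone, -1.33 over all rows, was -0.42, -0.96, -1.71, -2.19 and -2.49 in 5 equal groups from narrow to broad rows, and -0.88, -0.37, -0.13, -0.023 and -0.12 in 5 groups from low to high control level; both splits were chosen after seeing the data. The planned counts of G-quadruplex motifs, with a second motif definition and a 300 bp window, were not run because no genome of the files' build was used. The lists give no depth, so a region missing from a list cannot be told from one not detectable in it.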
